A study of Mus musculus with 6 samples.

Results

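A set of 10 genes that encode glycoproteins of the luminal epithelial surface or its secretions were followed in 6 mouse breast tumors: the mucins Muc1, Muc4, Muc15 and Muc20, the surface proteins Epcam, Cd24a, Prom1 and Folr1, and the secreted proteins Mfge8 and Spp1. They were chosen by name, through their NCBI Gene identifiers, and make up 10 of the 18460 genes listed in at least 1 tumor. All 10 were listed in every tumor. The 3 test tumors came from Balb/c mice labelled K14-TSLPtg;PyMTtg;Rag1KO and the 3 control tumors from Balb/c mice labelled PyMTtg;Rag1KO. Both groups had received CD4+ T cells at 4 wk of age, and the tumors were taken at the endpoint, at weeks 18 to 20. The polyoma middle T transgene, driven by the mammary tumor virus promoter, gives the mice spontaneous breast tumors, and loss of Rag1 leaves them without T and B cells of their own. The keratin 14 promoter directs the cytokine TSLP to keratinocytes in the test mice, so the Tslp transgene is the labelled difference between the groups. Each tumor came from its own mouse, so the p-values measure the spread between mice.

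Luminal cells line the ducts and alveoli of the mammary gland and face the lumen with a coat of heavily O-glycosylated proteins. The membrane mucins carry dense sugar chains on long extracellular stretches, and Epcam, Cd24a, Prom1 and Folr1 are classic markers of the epithelial or luminal surface. In lactation, fat globules leave the cell wrapped in this membrane, which carries Muc1, Muc15 and Mfge8 into milk. Spp1 encodes osteopontin, a secreted phosphoprotein of milk and bone that is bound by integrins and is also made by macrophages.

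Tumor RNA was sequenced, and each gene has an expected count (the estimated number of its reads) and an FPKM, scaled by gene length and depth. Totals ran from 8373390 to 9449565 counts per tumor. Levels of a gene are given in CPM, its counts scaled to a common library size, and levels of different genes are compared by FPKM. Tslp, the targeted gene, had 12, 7 and 2 counts in test replicates 1, 2 and 3 and 2, 2 and 3 counts in the controls. It was too low to enter the test and so gives only a weak check of the labels. The reason for the low counts was not tested. Control replicate 2 stood apart from the other controls over all genes: its correlation with the test tumors was 0.921 to 0.935, against 0.874 and 0.908 with the other controls. Markers of luminal epithelium were present in every tumor. In bulk tumors, fewer cells of a type and less RNA per cell cannot be told apart. Below, 3 values in a row are those of replicates 1, 2 and 3 of a group.

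The sequences shown here are those of the members on which the later comparisons turn. Muc1 and Epcam, shown as examples of a membrane mucin and an adhesion molecule, were the members whose groups separated after scaling to luminal genes, as 44.9% of all genes did in the same direction. The 250 bases before their start sites are given from RefSeq on GRCm38.p6, with matches to an E-box (CACCTG on either strand), bound by the epithelial repressors ZEB and SNAIL, and to a grainyhead-like motif (AACNNGTT, the same letters on both strands) in capitals. The Muc1 window lies at chr3:89228806-89229055 and the Epcam window at chr17:87635729-87635978, both on the plus strand.
Muc1: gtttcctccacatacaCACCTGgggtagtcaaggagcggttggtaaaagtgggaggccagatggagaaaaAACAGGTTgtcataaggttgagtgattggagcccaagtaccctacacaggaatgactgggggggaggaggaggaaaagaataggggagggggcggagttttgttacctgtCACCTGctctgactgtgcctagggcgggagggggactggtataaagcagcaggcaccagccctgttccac
Epcam: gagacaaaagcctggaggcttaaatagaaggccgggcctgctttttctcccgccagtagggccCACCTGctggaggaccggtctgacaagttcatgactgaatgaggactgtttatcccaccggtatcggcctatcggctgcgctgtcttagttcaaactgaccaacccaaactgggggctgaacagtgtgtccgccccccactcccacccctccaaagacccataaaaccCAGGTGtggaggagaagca
The third sequence is exon 4 of 10 of Mfge8, at chr7:79143278-79143388 on the minus strand of GRCm38, in capitals with 15 transcript bases on each side. Its 111 bases are all coding, span 37 codons, and are present only in the long form of the transcript.
Mfge8: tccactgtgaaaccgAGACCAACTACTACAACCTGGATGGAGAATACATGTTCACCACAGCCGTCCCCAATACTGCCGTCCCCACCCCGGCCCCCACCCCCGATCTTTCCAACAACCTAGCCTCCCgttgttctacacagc
The motifs and sequences were chosen after expression values were seen. The Muc1 window held 2 E-boxes and 1 grainyhead-like match, and the Epcam window held 2 E-boxes. Windows were found for 7 of the 10 members, 9 windows in all, of which 5 held an E-box (Muc1, Muc20, Epcam, and 1 window each of Prom1 and Spp1). Among all 32851 promoters of the table, 17.2% held an E-box and 3.64% a grainyhead-like match within windows of equal length. None of the 9 windows held the STAT motif TTCNNNGAA, which 7.02% of all promoters held. These matches describe letters only.

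The members spanned a wide range of levels. By median FPKM over the 6 tumors, Spp1 was first at 2911, then Mfge8 at 1012, Cd24a at 403, Epcam at 359, Muc1 at 111, Muc15 at 106, Folr1 at 78.0, Muc20 at 19.3, Prom1 at 10.6 and Muc4 at 1.06. The range over tumors of each gene overlapped that of the next gene in this order, from 1373 to 9897 for Spp1 downward, except that Muc4 (0.05 to 3.58) lay below every value of Prom1 (5.53 to 44.5). Spp1 and Mfge8 together held between 0.36% and 1.91% of all counts in a tumor.

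None of the 10 members was called as different between test and control tumors. All 10 passed the filter on low counts and entered the edgeR quasi-likelihood test with 13706 genes. At an adjusted p of 0.05 or less, 0 members were called, and 0 of all tested genes (0%). At an unadjusted p under 0.05 there were 0 members, against 8.41% of all tested genes. Groups overlapped for every member, whereas 12.0% of all tested genes had groups that did not overlap. The fitted log2 fold change was above 0 in 7 members and below 0 in 3, with a median of 0.56 beside 0.0179 for all tested genes. With DESeq2, 2.32% of all tested genes and 0 members were called, and 3 members (Muc15, Folr1 and Mfge8) had an unadjusted p under 0.05, against 8.61% of all genes with a p. Adjusted p-values of the members lay between 0.603 and 0.998 in edgeR, and the lowest over all genes was 0.394. In 3 against 3 tumors the exact permutation test cannot give a p below 0.1.

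**Figure D1:**
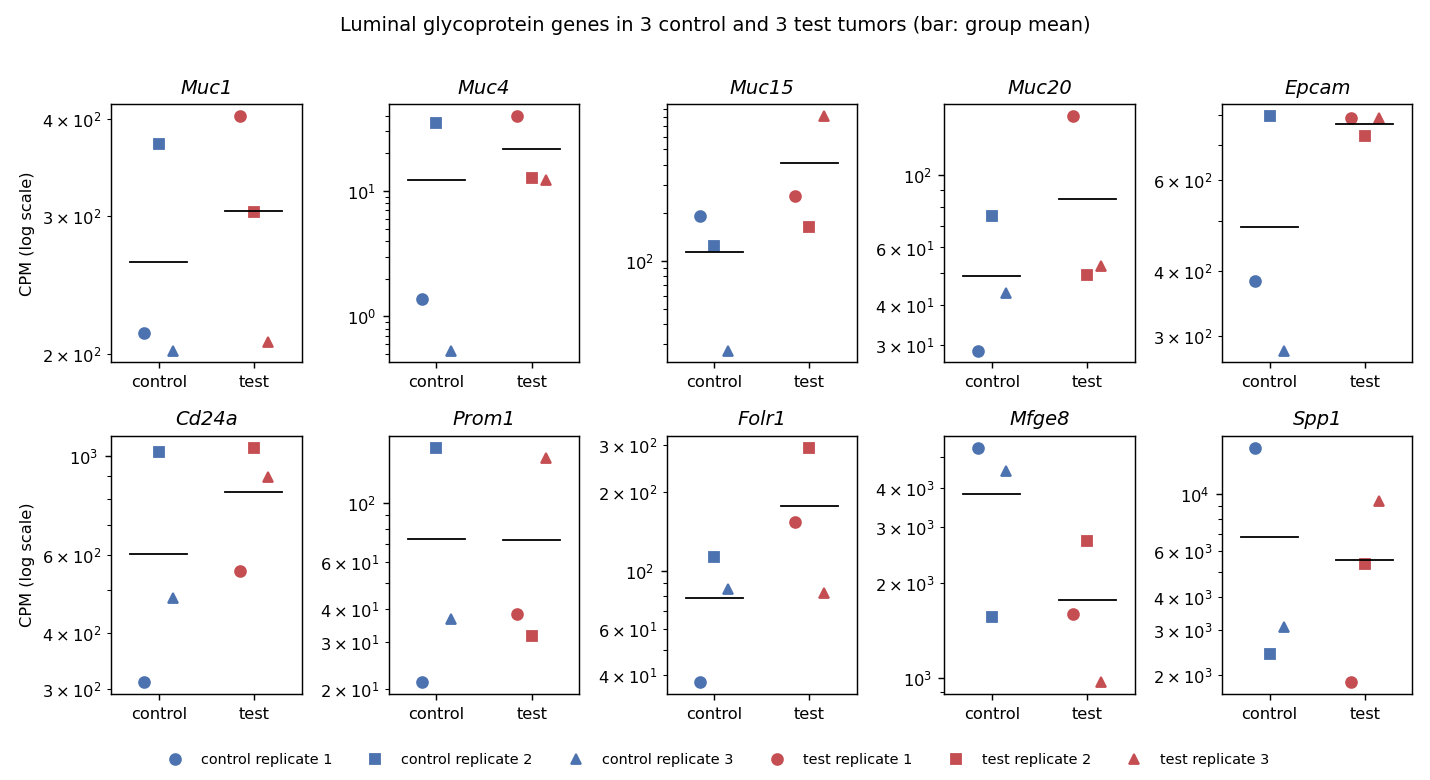
CPM (log scale) of each of the 10 genes in 3 control tumors (blue) and 3 test tumors (red), with the marker shape giving the replicate and the black bar the group mean. Every pair of groups overlaps, and control replicate 2 (blue square) lies within the range of the test tumors for 7 of 10 genes.

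Among the mucins, Muc1, a membrane mucin of the apical surface of luminal cells, lies on chromosome 3 (89229056 to 89233381, GRCm38). Its level was 403, 304 and 207 CPM in the test tumors and 213, 371 and 202 CPM in the controls. Test replicate 1 and control replicate 2 were the highest, and the other 4 tumors were spread over both groups. The log2 fold change was 0.22 (SE 0.36, 95% confidence interval -0.63 to 1.06, adjusted p = 0.885), and the exact permutation p was 0.6. Muc1 was the steadiest of the mucins, with a 2-fold difference between the highest and the lowest tumor, and the fold change ran from -0.04 without test replicate 1 to 0.55 without control replicate 2.

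Muc15, a membrane mucin of the milk fat globule, had the highest fitted value of the members without passing the test. It stood at 256, 163 and 808 CPM in the test tumors and at 191, 124 and 27.2 CPM in the controls. Test replicate 3 was far above the rest and control replicate 3 far below, and the test value was higher in 8 of 9 pairs of a test and a control tumor. The log2 fold change was 1.85 (SE 0.80, interval -0.03 to 3.72, adjusted p = 0.603), with an exact permutation p of 0.2. Without test replicate 3 it was 0.89. Muc15 (chromosome 2, 110721494 to 110739537) lies within Ano3, a gene of the opposite strand, and the sources used here do not state whether counting used strand. Ano3 itself had only 2 to 43 counts per tumor.

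Muc20, a small membrane mucin that binds the receptor Met, was at 152, 49.4 and 52.6 CPM in the test tumors and 28.9, 75.2 and 43.5 CPM in the controls. Test replicate 1 was the highest tumor, and the other test values fell between those of the controls. Its log2 fold change was 0.78 (SE 0.53, interval -0.46 to 2.02, adjusted p = 0.731), and it was 0.05 without test replicate 1, 0.51 without control replicate 1 and 1.22 without control replicate 2.

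Muc4, a large membrane mucin that forms a complex with the receptor ErbB2, was the least abundant member and the most uneven. Its level was 39.6, 12.7 and 12.2 CPM in the test tumors and 1.39, 34.8 and 0.533 CPM in the controls. Controls 1 and 3 were the only tumors with a low level, and control replicate 2 was as high as the test tumors, so the highest tumor stood 74.2-fold above the lowest. The log2 fold change was 0.81 (SE 1.29, interval -2.19 to 3.81, adjusted p = 0.880), with an exact permutation p of 0.3. Without control replicate 2 it was 4.47 (unadjusted p = 0.0011, edgeR adjusted p = 0.0607), in a fit of 2 controls that called 1.28% of all genes tested in it and 0 members. Without test replicate 1 it was 0.02, without control replicate 3 it was 0.24 and without control replicate 1 it was 0.28. Muc4 and Muc20 overlap on chromosome 16 (32735886 to 32782391 and 32777419 to 32797435) on opposite strands.

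The summed level of 6 skeletal muscle markers moved with Muc4, at 853, 161 and 80.0 CPM in the test tumors and 6.83, 162 and 4.26 CPM in the controls. Both were lowest in control replicates 1 and 3 and highest in test replicate 1. Of these 6 markers, all were higher in the test tumors in fitted value and none had an unadjusted p under 0.05. By root mean square difference of centered log2 levels over the 6 tumors, the genes nearest to Muc4 of 10227 compared were Acta1 (0.54), Myh1 (0.63) and Ldb3 (0.67), all genes of the muscle sarcomere. The part of muscle in the Muc4 values was not tested.

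**Figure D2:**
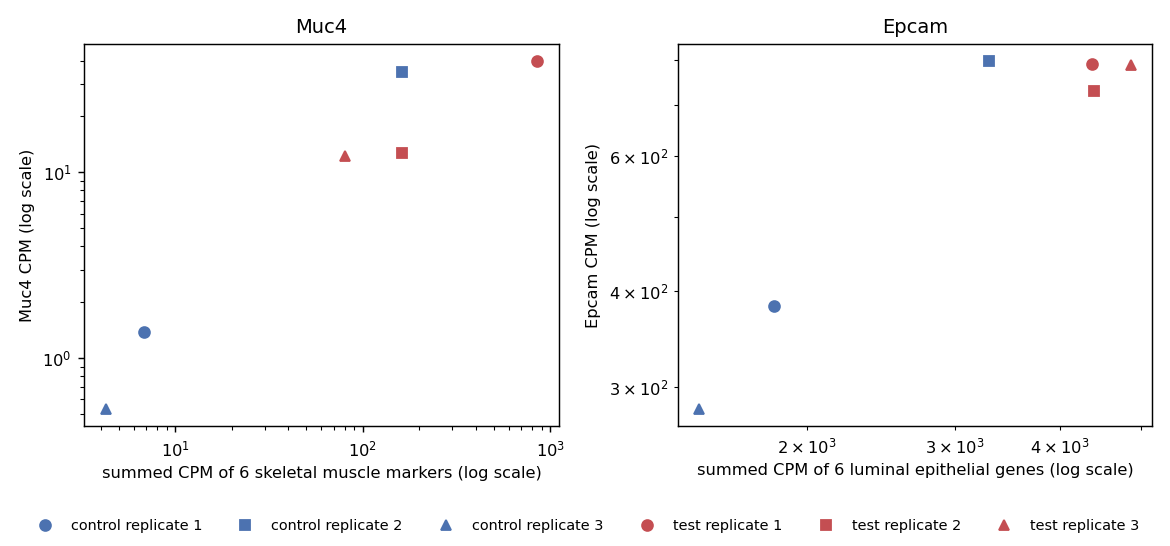
Left, Muc4 CPM against the summed CPM of 6 skeletal muscle markers, and right, Epcam CPM against the summed CPM of 6 luminal epithelial genes, with 1 point per tumor and log scales on all axes. Control replicates 1 and 3 lie lowest on both axes in both panels.

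Epcam, a homophilic adhesion molecule found on nearly all simple epithelia, was the most even member within the test group. Its level was 791, 730 and 789 CPM in the test tumors and 383, 797 and 281 CPM in the controls. Control replicates 1 and 3 were below every test tumor, and control replicate 2 was above every test tumor. The coefficient of variation was 4.5% in the test group and 56% in the controls. It had a log2 fold change of 0.66 (SE 0.41, interval -0.30 to 1.62, adjusted p = 0.703), with an exact permutation p of 0.4. Without control replicate 2 it was 1.21 (edgeR adjusted p = 0.139), and without control replicate 3 it was 0.38. The genes nearest to Epcam in pattern were Elovl7 (root mean square difference 0.09), Rffl (0.17) and Krt18 (0.19).

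Cd24a, a small lipid-anchored sialoglycoprotein that carries ligands of selectins and Siglecs, was at 553, 1042 and 898 CPM in the test tumors and 311, 1019 and 479 CPM in the controls. Control replicates 1 and 3 were again the lowest tumors, and control replicate 2 was between test replicates 2 and 3. Its log2 fold change came to 0.46 (SE 0.48, interval -0.66 to 1.59, adjusted p = 0.811). It was 0.15 without control replicate 1, 0.27 without test replicate 2 and 1.07 without control replicate 2. The nearest genes were Mybl2 (0.08), Ptrh2 (0.14) and Stmn1 (0.14). Cd24 has intronless copies in the genome that can share reads, so its level is less certain, although its counts were whole numbers in all 6 tumors.

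Prom1, the pentaspan membrane protein of plasma membrane protrusions also called CD133, was at 38.3, 31.7 and 147 CPM in the test tumors and 21.2, 161 and 36.7 CPM in the controls. Each group had a single high tumor, test replicate 3 and control replicate 2, and the other 4 were close together. The log2 fold change was -0.01 (SE 0.85, interval -1.99 to 1.97, adjusted p = 0.998). This interval leaves room for close to a 4-fold difference in either direction. Without control replicate 2 the value was 1.32, and without test replicate 3 it was -1.05.

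Folr1, a lipid-anchored receptor that brings folate into the cell, was at 153, 294 and 82.3 CPM in the test tumors and 37.6, 113 and 84.9 CPM in the controls. Test replicates 1 and 2 were above every control, and test replicate 3 was below 2 of them. Between the groups, the log2 fold change was 1.17 (SE 0.55, interval -0.10 to 2.44, adjusted p = 0.639), with an exact permutation p of 0.3. It was 0.58 without test replicate 2, the tumor with the highest summed level of fibroblast markers (3608 CPM against 576 to 2234 CPM in the other 5). Col1a1 (2022 CPM), Col1a2 (1268 CPM) and Lum were highest in that tumor, while Dcn, Pdgfra and Fap were highest in other tumors. The part of fibroblasts in the Folr1 value was not tested. Of 12 genes of folate transport and use, 5 were higher and 7 lower in the test tumors and 0 were called. Ggh, which trims polyglutamate from folates in lysosomes, had the highest fitted value at 0.64 (SE 0.28, unadjusted p = 0.0496, edgeR adjusted p = 0.593), and Folr2, the folate receptor of macrophages, had the lowest fitted value at -0.56 (SE 0.74, adjusted p = 0.849).

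The secreted members had fitted values below 0. Mfge8, a milk protein that bridges phosphatidylserine on dying cells to integrins on phagocytes, was at 1594, 2721 and 967 CPM in the test tumors and 5365, 1560 and 4530 CPM in the controls. Control replicates 1 and 3 were above every test tumor, and control replicate 2 lay between test replicates 1 and 3. On the log2 scale the fold change was -1.12 (SE 0.57, interval -2.44 to 0.21, adjusted p = 0.666), with a level 2.17-fold higher in the controls and an exact permutation p of 0.3. It stayed below 0 when each tumor was left out in turn, from -1.57 to -0.80. The genes nearest in pattern were Rflnb (0.17), 4930523C07Rik (0.19) and Podn (0.22).

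The deposited mean transcript length of Mfge8 varied between tumors, which gives an estimate of its isoforms. Mean lengths were 2119.24, 2076.64 and 2117.13 bases in the test tumors and 2091.36, 2108.23 and 2094.22 bases in the controls, between the annotated lengths of a short form (2008 bases) and a long form (2125 bases). The forms differ by 117 bases, 111 of them in the exon printed above. The long form was then 95.1%, 58.7% and 93.3% of Mfge8 transcripts in the test tumors and 71.2%, 85.7% and 73.7% in the controls. The share was lowest in test replicate 2 and highest in test replicate 1, so the test group spanned all of the controls. Means were 82.3% ± 20.5 (SD, n = 3) and 76.9% ± 7.72 (SD, n = 3), with an exact permutation p of 0.8. The short form accounted for 38.3, 515 and 30.6 FPKM in the test tumors and 689, 110 and 588 FPKM in the controls. It was thus high in the same 3 tumors that had the highest Mfge8 level, test replicate 2 and control replicates 1 and 3. The long form ranged from 425 to 740 FPKM in the test tumors and was 1708, 657 and 1646 FPKM in the controls. The same 3 tumors also had the highest summed level of 8 macrophage markers, at 1133, 669 and 1186 CPM against 471 to 594 CPM in the others. Taken singly, Csf1r, Cd68 and C1qc were highest in these tumors, while Adgre1, C1qa, C1qb, Mrc1 and Lyz2 did not keep this order. For Lyz2, control replicate 1 (142 CPM) was below control replicate 2 (228 CPM). The part of macrophages in the Mfge8 values was not tested. Isoform lengths here are those of the GENCODE M21 annotation, which may differ from the lengths behind the deposited file, and this comparison was chosen after values were seen.

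**Figure D3:**
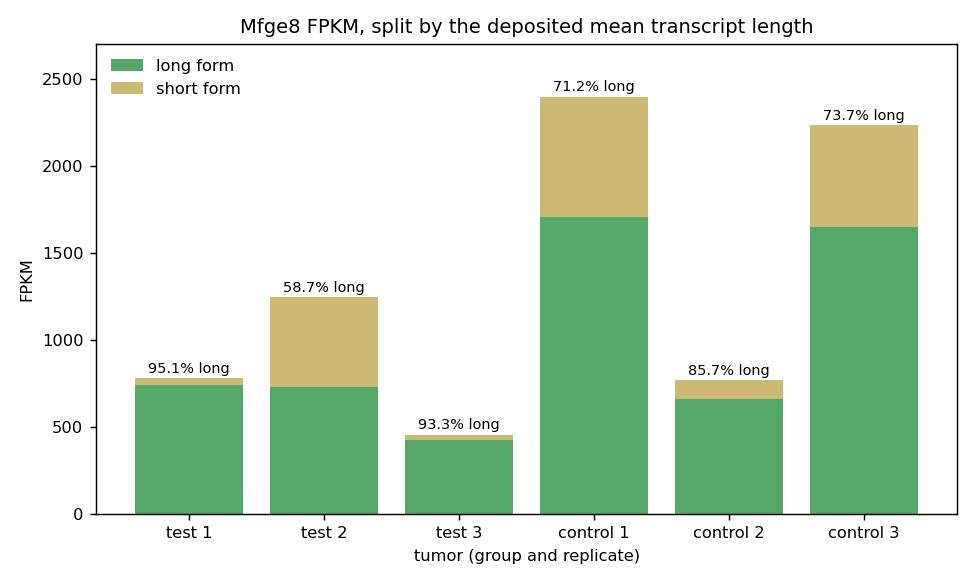
Mfge8 FPKM in each tumor, with each bar split into long form (green) and short form (yellow) by the deposited mean transcript length, and the long share written above it. The short form is visible mainly in test replicate 2 and control replicates 1 and 3.

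Spp1 was the most abundant member and varied as much within the groups as between them. Its level was 1884, 5361 and 9408 CPM in the test tumors and 15031, 2418 and 3068 CPM in the controls. Control replicate 1 was the highest tumor and test replicate 1 the lowest, with the other 4 mixed between the groups. Its fitted log2 fold change was -0.30 (SE 0.84, interval -2.24 to 1.64, adjusted p = 0.936), and it turned to 1.01 without control replicate 1. The nearest genes in pattern were Ifi203 (0.35), Mndal (0.38) and Akap12 (0.41).

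**Figure D4:**
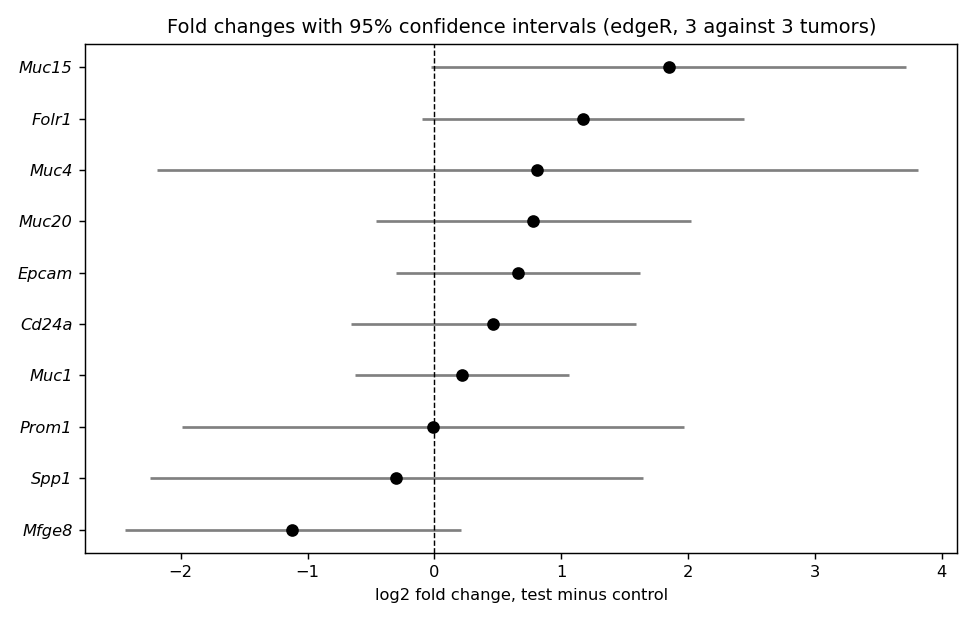
Log2 fold change (test minus control, edgeR) of each gene, with the point at the estimate and the line the 95% confidence interval over 3 against 3 tumors. Every interval crosses 0, and those of Muc15 (-0.03 to 3.72) and Folr1 (-0.10 to 2.44) come closest to leaving it out.

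Control replicate 2 was above both other controls for 7 of the 10 members. The median centered log2 level of the members was 0.49, 0.21 and 0.45 in the test tumors and -0.80, 0.41 and -0.49 in the controls. Control replicates 1 and 3 were each the lowest of all 6 tumors for 4 members, and control replicate 2 was within the range of the test tumors. Without control replicate 2 the median log2 fold change of the members was 1.22, beside 0.0413 for all genes tested. In that fit 5 members (Muc4, Epcam, Cd24a, Folr1 and Mfge8) had an unadjusted p under 0.05, against 14.3% of all genes, and 0 members were called.

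The luminal epithelial genes used as a reference had a higher geometric mean in every test tumor than in any control. The geometric mean FPKM of Krt7, Krt8, Krt18, Krt19, Cdh1 and Esrp1 was 272, 240 and 288 in the test tumors and 107, 202 and 91.0 in the controls. The groups did not overlap in this mean, and control replicate 2 was the closest to the test tumors. Of the single genes, Krt8, Krt18 and Krt19 did not overlap, while Krt7, Cdh1 and Esrp1 did. Among all tested genes, 12.0% had groups that did not overlap in CPM. All 6 genes had fitted values above 0 and 3 had an unadjusted edgeR p under 0.05, against 8.41% of all tested genes. The largest value was that of the simple keratin Krt19 at 1.82 (SE 0.42, unadjusted p = 0.00275, edgeR adjusted p = 0.394). None of the 6 was called. Keratin 8 (Krt8) followed at 1.22 (SE 0.37, edgeR adjusted p = 0.454).

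Each member was therefore also set against these luminal genes in its own tumor. On this scale, the log2 of the FPKM ratio, the median difference of the members was -0.46, while the median of the 13561 genes with an FPKM above 0 in all tumors was -1.09. For Muc1 the ratio was -0.55, -0.90 and -1.64 in the test tumors and -0.27, -0.23 and 0.03 in the controls. For Epcam it was 0.54, 0.49 and 0.41 in the test tumors and 0.70, 0.99 and 0.63 in the controls. In both genes every test tumor was below every control, with differences of -0.87 and -0.29 and an exact permutation p of 0.1, the smallest possible. These were 2 of 10 members, while 44.9% of all genes were lower in the test tumors without overlap on this scale. The differences of Muc1 and Epcam were nearer to 0 than the median over all genes. Cd24a, Muc20, Prom1, Spp1 and Mfge8 had differences of -0.50, -0.41, -0.92, -1.17 and -2.16, with overlapping groups. Folr1 was level with the luminal genes at 0.03. Only Muc15 (0.81) and Muc4 (1.53) had ratios higher in the test tumors by more than this, with overlapping groups and an exact permutation p of 0.4 each. The part of the epithelial share in the members' values was not tested.

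**Figure D5:**
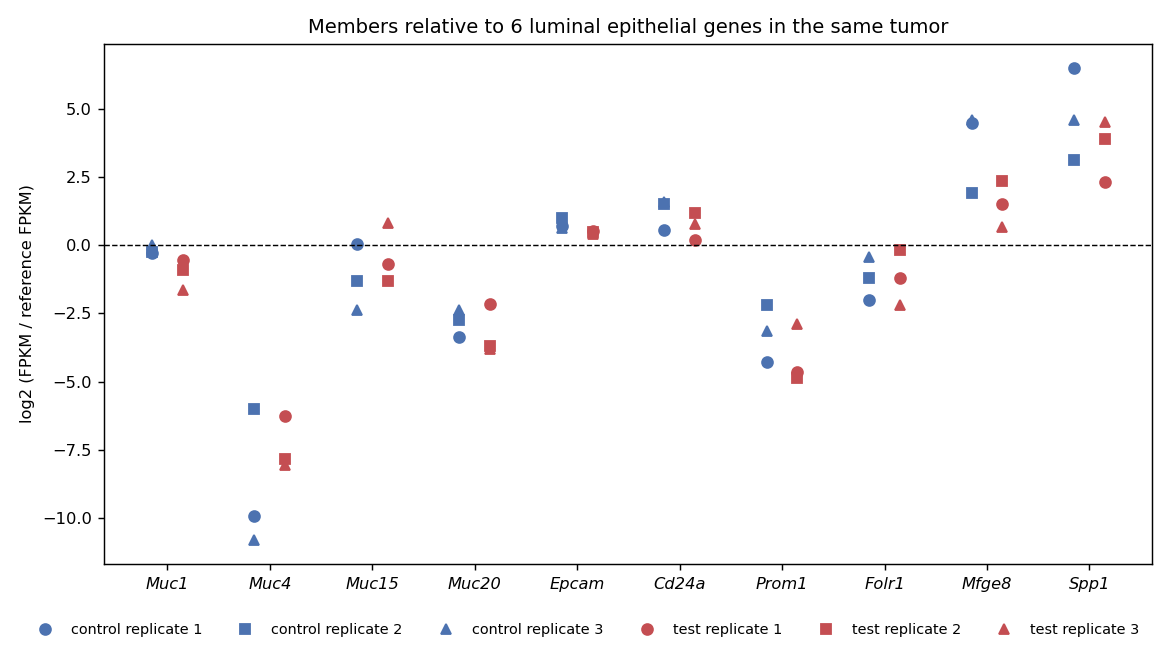
Log2 ratio of each gene's FPKM to the geometric mean FPKM of 6 luminal epithelial genes in the same tumor, with blue control and red test points and the shape giving the replicate. The groups separate for Muc1 and Epcam, with all test points below the control points, and overlap for the other 8 genes, where 44.9% of all genes are lower in the test tumors without overlap.

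Relatives and partners of Epcam and Cd24a all had higher fitted values in the test tumors. Of 11 such genes, among which Siglec10 had no match in the gene reference, 9 were tested. All 9 had fitted values above 0, with a median of 0.86 and 0 called. An unadjusted edgeR p under 0.05 was found for 3 of them, against 8.41% of all tested genes. The 6 luminal reference genes were likewise all above 0, with a median of 0.97, so the rise is not particular to this list. Prom2, the paralog of Prom1, had the smallest value of the list at 0.32 (SE 0.71, adjusted p = 0.915).

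Receptors and relatives of osteopontin and MFG-E8 had mostly lower values. Of 15 genes, 12 were tested, 9 below and 3 above 0, with a median of -0.38 and 0 called. An unadjusted edgeR p under 0.05 was found for 3 of them (all lower), against 8.41% of all tested genes. Dmp1, a bone matrix protein of the same family as osteopontin, was at 0.922, 1.95 and 3.18 CPM in the test tumors and 104, 7.79 and 41.6 CPM in the controls. Every control was above every test tumor, while 12.0% of all tested genes had groups that did not overlap. Control replicate 2 was the lowest of the controls. The log2 fold change of Dmp1 was -4.65 (SE 0.96, unadjusted p = 0.00147), and the edgeR adjusted p was 0.394. Spp1 itself did not follow this order. Edil3, a secreted relative of Mfge8 that also binds integrins, was at 1.27, 2.44 and 4.46 CPM in the test tumors and 95.2, 4.00 and 26.4 CPM in the controls. Control replicates 1 and 3 were far above the other tumors, and control replicate 2 lay among the test tumors. The fitted value was -3.93 (SE 1.07, unadjusted p = 0.00699, edgeR adjusted p = 0.425). Itgb6, an epithelial integrin chain that binds osteopontin, had the highest fitted value at 0.32 (SE 0.58, adjusted p = 0.893).

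The enzymes that build mucin-type sugar chains had as many fitted values above 0 as below. Of 30 genes, 22 were tested, 11 above and 11 below 0, with a median of -0.01 and 0 called. An unadjusted edgeR p under 0.05 was found for 2 of them (both lower), against 8.41% of all tested genes. Galnt10, a transferase that adds the first sugar of the chain, was at 74.5, 61.3 and 59.5 CPM in the test tumors and 168, 111 and 201 CPM in the controls. Every control was above every test tumor, while 12.0% of all tested genes had groups that did not overlap. Control replicate 2 was the control nearest to the test tumors. The log2 fold change of Galnt10 was -1.30 (SE 0.29, unadjusted p = 0.0022, edgeR adjusted p = 0.394). The highest fitted value was that of the chain-starting transferase Galnt9 at 2.61 (SE 1.65, adjusted p = 0.707), which rested on test replicate 2 (33.3 CPM, with 0 to 3.47 CPM elsewhere). The lowest fitted value was that of the sialyltransferase St3gal2 at -1.43 (SE 0.55, unadjusted p = 0.0318, edgeR adjusted p = 0.537). St3gal2 was high in control replicates 1 and 3 (59.6 and 59.5 CPM) and at 13.1 to 19.9 CPM in the other 4 tumors.

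Few other mucin genes passed the filter. Of 14 genes, 8 were listed in a tumor, and Muc19 had no match in the gene reference, so its level is unknown. The filter was passed by 3, led by Emcn, an endothelial sialomucin, at 0.51 (SE 0.42, adjusted p = 0.774). Cd164, a small sialomucin of many cell types, was lowest at -0.10 (SE 0.29, adjusted p = 0.938). The gel-forming mucins Muc5ac and Muc5b were not listed in any tumor. Genes of the milk fat globule membrane showed 6 of 10 above 0 and 4 below, with a median of 0.09 and 0 called. The fatty acid transporter Cd36 had the highest fitted value at 2.48 (SE 1.16, adjusted p = 0.637), with 90.7 CPM in test replicate 1 and 1.91 to 9.89 CPM elsewhere. Summed adipocyte markers were likewise highest in test replicate 1, at 344, 96.3 and 15.4 CPM in the test tumors and 24.7, 15.6 and 20.9 CPM in the controls. The 3 tested adipocyte markers all had fitted values above 0 and an unadjusted edgeR p under 0.05, against 8.41% of all tested genes. None of the 3 was called. The part of adipocytes in the Cd36 value was not tested. Among the milk fat globule membrane genes, Fabp3, which carries fatty acids in the cell, had the lowest fitted value at -1.29 (SE 0.71, adjusted p = 0.685).

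The remaining members' nearest genes in pattern were Dazap2 (0.11), Ofd1 (0.12) and Rnf185 (0.15) for Muc1, Aldh1l1 (0.40), Atf3 (0.59) and Trpm6 (0.62) for Muc15, and Dpp4 (0.16), Cracdl (0.16) and Reep1 (0.18) for Muc20. For Prom1 they were Axin2 (0.43), Prss12 (0.47) and Tfrc (0.47), and for Folr1 Cd164l2 (0.24), Pcsk5 (0.24) and Ctsk (0.25). These distances describe 6 libraries and share their depth and composition.

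Other cell types were followed by their summed marker levels. Summed myoepithelial markers ran from 505 to 1229 CPM in the test tumors and from 435 to 3066 CPM in the controls, and endothelial markers from 109 to 146 and 98.8 to 138 CPM. Neutrophil markers ran from 25.4 to 69.1 and 57.2 to 112 CPM. T cell markers were low in both groups, at 4.27 to 8.91 and 5.08 to 7.35 CPM, with Trac not listed. Summed B cell markers did not pass 1.95 CPM, and keratinocyte markers reached 20.7 CPM in test replicate 3 and 4.27 CPM at most elsewhere, with Flg not listed.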

How the data were processed

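Total RNA of 6 breast tumors was sequenced at Beijing Genomics Institute, and the authors aligned reads to mm10 with Bowtie. The submitters' processing notes also name BWA and RSEM, with no role. The authors deposited, per tumor and gene, an expected count (not normalized; 79.0% to 80.1% were whole numbers), an FPKM (scaled by the authors to length and sequencing depth) and a gene length. Annotation and strand of counting are not given in the sources used here. Genes not listed in a tumor were set to 0. Groups came from the labels.

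Expected counts were rounded and fitted with edgeR 4.0.16 in R 4.3.3 (filterByExpr, TMM, quasi-likelihood test, Benjamini-Hochberg over all 13706 genes, common biological coefficient of variation 0.434). Confidence intervals are 95%. Exact permutation tests were two-sided. They used log2(CPM + 0.5) for the levels of members, the log2 FPKM ratio for the luminal scale, and the percent of long form for Mfge8. The study's methods name a Poisson method, NOISeq or EBSeq without saying which was used, and none of these was run. The edgeR quasi-likelihood test was also run on simulated counts with known changes, and the other methods were not.

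Alternatives were DESeq2 1.42.0, RLE scaling, no filter, a minimum of 10 counts in each tumor, limma-trend 3.58.1 with pseudocounts of 1 and 0.1 FPKM at a mean FPKM of at least 1, a replicate block, each tumor left out, and ratios to luminal genes. The members and lists were chosen with earlier results of these data known. Text names all members, Tslp, the largest rise and fall of each related list, genes there with an unadjusted p under 0.01, and the 3 genes nearest in pattern (mean CPM of at least 10). St3gal2's levels, Krt8, unlisted mucins, motifs and isoforms were named after values were seen. Some genes that this rule names are not reported here.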

Additional observations from a re-analysis of the deposited data

How the results depend on the processing

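The count of members called stayed at 0 in all 13 alternatives with a test over all genes. The exact permutation test on ratios to luminal genes cannot give a p below 0.1, so it could call no member. The median log2 fold change of the members was above 0 in all but 1 alternative: it was -0.46 relative to luminal epithelial genes. Those reference genes were higher in the test tumors, which lowers every gene on that scale. The median there was -1.09 over all genes with an FPKM above 0 in all tumors. Muc1 (-0.87), Muc20 (-0.41), Epcam (-0.29) and Cd24a (-0.50) also turned below 0 on that scale, each nearer to 0 than that median. Leaving out each tumor in turn gave a median of 0.20 to 1.22, and 1.22 was reached without control replicate 2. The same removals gave -0.04 to 0.55 for Muc1, -1.05 to 1.32 for Prom1 and -0.90 to 1.01 for Spp1, so these 3 signs each rest on single tumors. Prom1 was also 0.14 and 0.16 by limma-trend with pseudocounts of 1 and 0.1 FPKM. With a replicate block Prom1 was 0.29, Spp1 0.16 and Muc4 2.81 (0.81 without the block), with 0 calls among all genes. Muc4 was 1.86 by limma-trend with a pseudocount of 0.1 FPKM. Deviations of same-numbered tumors from their group means had correlations of -0.025, 0.121 and -0.137, and not every tumor correlated best with its own number. With 3 tumors per group these values cannot decide whether the numbers mark pairs, and the labels give only replicate numbers. Over all genes, calls numbered 0 in edgeR, 344 with DESeq2 (98 higher, 246 lower), 182 without control replicate 2 (12 higher, 170 lower) and 1 by limma-trend with a pseudocount of 1 FPKM, and the cause was not tested. DESeq2 gave an unadjusted p under 0.05 for 3 members, against 8.61% of all genes with a p, and gave no p for Muc4. The common biological coefficient of variation was 0.434. Muc4 had only 12 and 5 counts in control replicates 1 and 3. The parts of depth and of the spread between tumors in these results were not tested.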
